A study of Mus musculus with 16 samples.

Results

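The genes described here are the 9 chemokine genes Cxcl1, Cxcl2, Cxcl9, Cxcl10, Cxcl12, Cxcl13, Cxcl14, Cxcl16 and Cx3cl1, which encode ligands of the CXC and CX3C families. They were taken by symbol from the 18820 mouse genes that have a probe set annotated with exactly 1 symbol, and all 9 had 1 such probe set each. The measurements are log2 signals of 35556 probe sets on 1-colour Affymetrix whole-transcript arrays, hybridised with whole-liver RNA from 16 male mice aged 7 days on a mixed C57/BL6 - SV129Ola background. Each of the 4 genotypes had 4 animals and 1 array per animal. WT animals were littermates with loxP-flanked alleles and no Cre recombinase. TRAF2/Casp-8LPC-KO animals, here called TRAF2/Casp8 KO, carried alfp-Cre, which deletes Traf2 and Caspase-8 in the liver's parenchymal cells. TRAF2/Casp-8LPC-KO/RIPK3-/- animals (RIPK3 triple KO) also lacked Ripk3 in every tissue, and TRAF2/Casp-8/IKKbetaLPC-KO animals (IKKβ triple KO) also lost Ikkβ in liver parenchymal cells. All 3 knockout genotypes therefore carry the Cre and both parenchymal deletions, and blood, endothelial and stromal cells of the same organ keep Traf2, Caspase-8 and Ikkβ. The series title concerns NF-κB and necroptosis in liver.

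Chemokines are small secreted proteins that direct leukocytes along concentration gradients by binding G-protein-coupled receptors. CXCL9 and CXCL10 bind CXCR3 on T and NK cells and are classical interferon-induced genes, while CXCL1 and CXCL2 bind CXCR2 on neutrophils and are classical NF-κB targets. CX3CL1 and CXCL16 are made as membrane-anchored proteins whose soluble forms are released by the proteases ADAM10 and ADAM17, and they bind CX3CR1 and CXCR6. CXCL12 and CXCL13 are largely constitutive organisers of haematopoietic and lymphoid tissue that act through CXCR4 and CXCR5, and CXCL14 is an epithelial chemokine.

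Of the 9 genes, 8 have an entry among the RefSeq promoter sequences of the build GRCm38.p6, and Cxcl16 has none. A promoter here is the window from 250 bases before to 50 bases after the gene's start. The promoters of Cxcl10, Cxcl9, Cx3cl1 and Cxcl1 are printed 5′ to 3′ on the gene's own strand, the first 3 because they belong to the genes that differed between genotypes and Cxcl1 as the textbook NF-κB target of the set. Capitals mark matches to the kappa-B consensus, the binding motif of NF-κB, or to the interferon response element core GAAANNGAAA, each searched on both strands.

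Cxcl10: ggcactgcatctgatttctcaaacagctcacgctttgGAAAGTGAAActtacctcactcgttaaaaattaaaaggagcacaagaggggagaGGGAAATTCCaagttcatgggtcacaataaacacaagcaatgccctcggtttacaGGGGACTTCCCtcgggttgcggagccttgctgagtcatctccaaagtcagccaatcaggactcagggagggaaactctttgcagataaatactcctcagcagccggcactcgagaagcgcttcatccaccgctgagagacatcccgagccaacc
Cxcl9: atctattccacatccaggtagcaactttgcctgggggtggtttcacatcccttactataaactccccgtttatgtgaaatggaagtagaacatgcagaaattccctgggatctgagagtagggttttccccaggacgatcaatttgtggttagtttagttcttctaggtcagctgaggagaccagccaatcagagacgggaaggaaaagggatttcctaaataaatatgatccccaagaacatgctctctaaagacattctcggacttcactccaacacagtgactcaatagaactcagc
Cx3cl1: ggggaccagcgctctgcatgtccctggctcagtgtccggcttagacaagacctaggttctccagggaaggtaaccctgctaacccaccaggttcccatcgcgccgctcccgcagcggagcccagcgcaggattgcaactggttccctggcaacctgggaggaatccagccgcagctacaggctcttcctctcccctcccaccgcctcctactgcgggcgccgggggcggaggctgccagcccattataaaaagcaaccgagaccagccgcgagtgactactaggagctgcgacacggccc
Cxcl1: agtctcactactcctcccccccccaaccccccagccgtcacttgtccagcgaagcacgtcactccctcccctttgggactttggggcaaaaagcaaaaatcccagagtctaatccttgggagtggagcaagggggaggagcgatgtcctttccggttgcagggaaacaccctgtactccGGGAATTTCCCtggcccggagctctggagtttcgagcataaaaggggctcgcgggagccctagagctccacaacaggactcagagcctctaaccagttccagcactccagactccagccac

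The Cxcl10 window (chr5:92348840-92349139, minus strand) held both motifs. Its interferon response element core, GAAAGTGAAA, lay 213 to 204 bases before the start, and its kappa-B matches lay at GGGAAATTCC, 159 to 150 bases before it, and at GGGGACTTCCC, 104 to 94 bases before it, where matches overlap. Cxcl1 (chr5:90890995-90891294, plus strand) held the palindromic kappa-B match GGGAATTTCCC at 71 to 61 bases before the start. The same 11 letters stood 97 to 87 bases before the start of Cxcl2, the next gene on chromosome 5 (chr5:90903649-90903948, plus strand). Cxcl14 held the interferon core as GAAACAGAAA. Neither motif was found in these windows of Cxcl9 (chr5:92328030-92328329, minus strand), Cx3cl1 (chr8:94771930-94772229, plus strand), Cxcl12 or Cxcl13. Among all 32851 promoters of the table, 8.46% held a kappa-B match and 3.44% held the interferon core. A match is a description of letters and was not tested as a binding site. In the gene order of the same assembly, Cxcl9 and Cxcl10 are separated by 1 protein-coding gene, Art3, and Cx3cl1 lies between the chemokine genes Ccl22 and Ccl17.

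Arrays of the same genotype correlated at 0.981 to 0.991 over all probe sets. The targeted genes Casp8, Ripk3 and Ikbkb followed their labels, but Traf2 went against its own, at 6.21 to 6.40 in WT and 6.87 to 7.53 over the 12 knockout arrays. Whether its probes lie in the deleted part is not given in the sources used here, so the Traf2 label was not checked by these values. As far as array names tell, plate column 5 held WT and IKKβ triple KO and column 7 the other 2 genotypes, so genotype and column cannot be told apart in a comparison across them. Within column 5, IKKβ triple KO can be set against WT, and within column 7, RIPK3 triple KO against TRAF2/Casp8 KO. However, WT and RIPK3 triple KO lay in plate rows A to D and the other genotypes in rows E to H. Genotype and row therefore cannot be told apart in these same-column comparisons. TRAF2/Casp8 KO against WT, and IKKβ triple KO against RIPK3 triple KO, differ in both row and column. WT replicate 1 stood apart from the other arrays on the second principal component and was the highest WT array for 6 of the 9 chemokine genes. Replicate 4 of TRAF2/Casp8 KO and of RIPK3 triple KO were also the highest of their genotype for 6 of 9, and RIPK3 triple KO replicate 1 was the lowest of its genotype for 6 of 9. The name of the TRAF2/Casp8 KO replicate 4 array has another prefix than the others. Hepatocyte markers (8 of 8 measured) had a mean log2 signal of 11.87 to 12.26 over the arrays. By the limma test described below, 1 of them was lower in TRAF2/Casp8 KO than in WT. None passed in RIPK3 triple KO or IKKβ triple KO against WT. In the order of these genotypes, 2, 3 and 0 had an unadjusted p under 0.05. The share of all genes lower against WT is not given here. The livers are bulk tissue, and fewer cells of a type cannot be told apart from less RNA per cell.

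**Figure D1:**
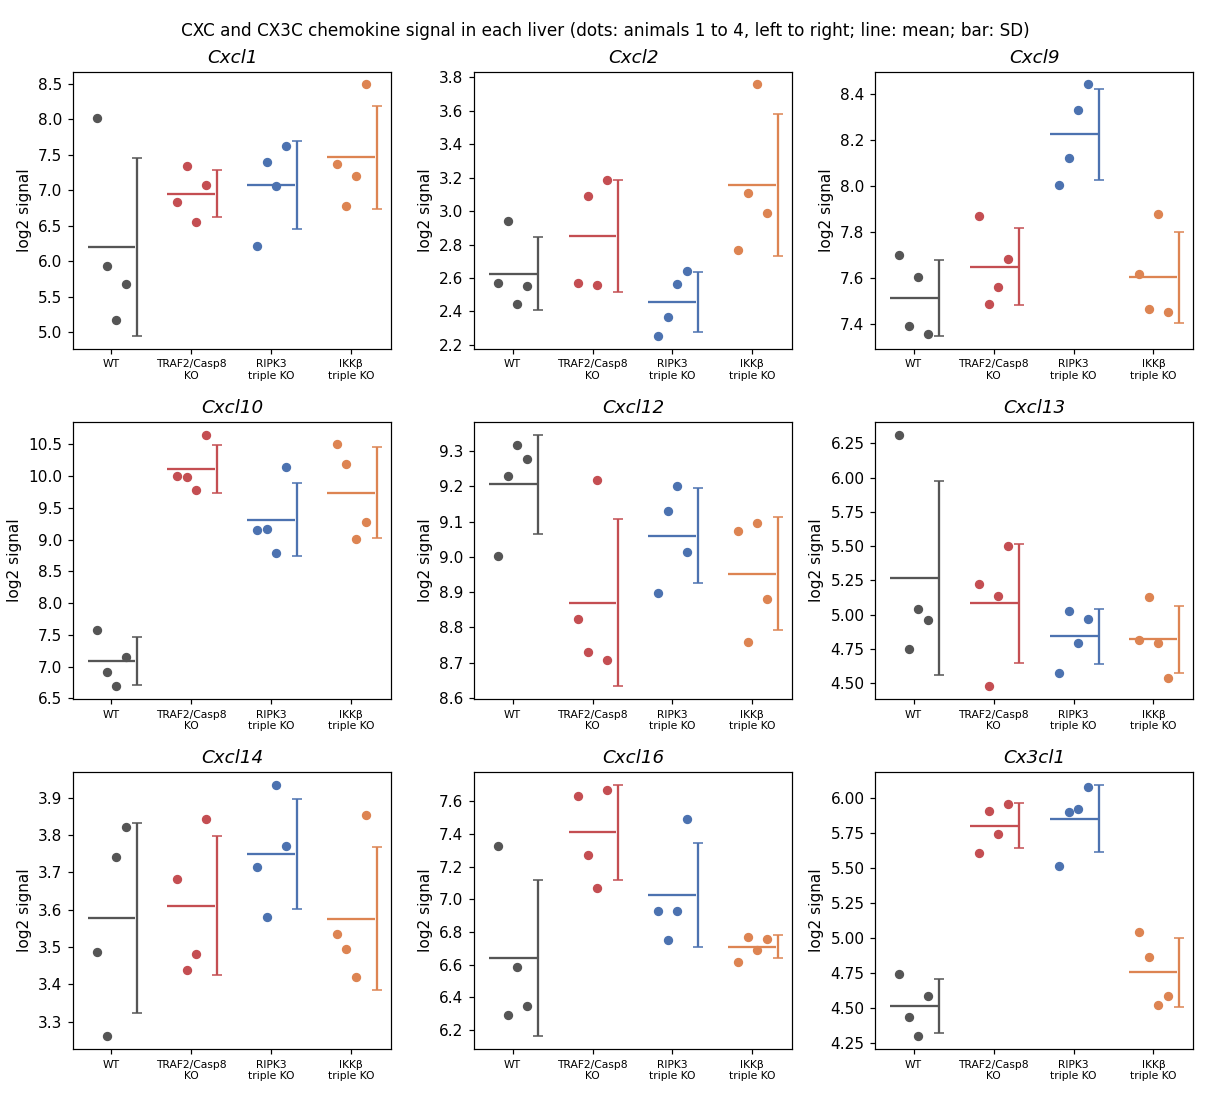
Log2 signal (vertical axes, a scale of its own for each gene) of the 9 chemokine genes in the 4 genotypes; dots are animals 1 to 4 from left to right, lines are means and bars are SDs. Cxcl10 lies above all WT values in every knockout liver, Cx3cl1 is high in TRAF2/Casp8 KO and RIPK3 triple KO only, and Cxcl9 is high in RIPK3 triple KO.

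Against WT, Cxcl10 and Cx3cl1 rose in TRAF2/Casp8 KO, both of these and Cxcl9 rose in RIPK3 triple KO, and Cxcl10 alone rose in IKKβ triple KO. A rise or fall means an adjusted p of at most 0.05 in a limma model of all 16 arrays, with p-values adjusted by Benjamini-Hochberg over every probe set. In TRAF2/Casp8 KO against WT, 2 of 9 chemokine genes rose and 0 fell, where 2.17% of all genes rose. RIPK3 triple KO against WT had 3 of 9 higher, with 1.94% of all genes higher. For IKKβ triple KO against WT the count was 1 of 9, and 0.0266% of all genes rose. Between the knockouts, RIPK3 triple KO against TRAF2/Casp8 KO had 0 of 9 past the threshold by limma, where 0.329% of all genes passed in either direction. Without adjustment, 2 of 9 had a limma p under 0.05 there. The share of all genes at an unadjusted p under 0.05 was not computed, here or for the gene lists below. Against TRAF2/Casp8 KO, IKKβ triple KO had 1 of 9 lower, with 0.903% of all genes lower. Against RIPK3 triple KO, IKKβ triple KO had 2 of 9 lower and 0 higher, beside 1.38% of all genes lower and 0.627% higher. The comparisons that share a genotype share its arrays and are not independent of each other. The 9 genes were chosen with earlier results of these data known, so these counts do not measure an excess over all genes. The median difference of the 9 genes was 0.22, 0.39 and 0.09 against WT in the order of genotypes above, beside −0.01 over all genes in each, and 0.05, −0.05 and −0.11 between the knockouts.

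**Figure D2:**
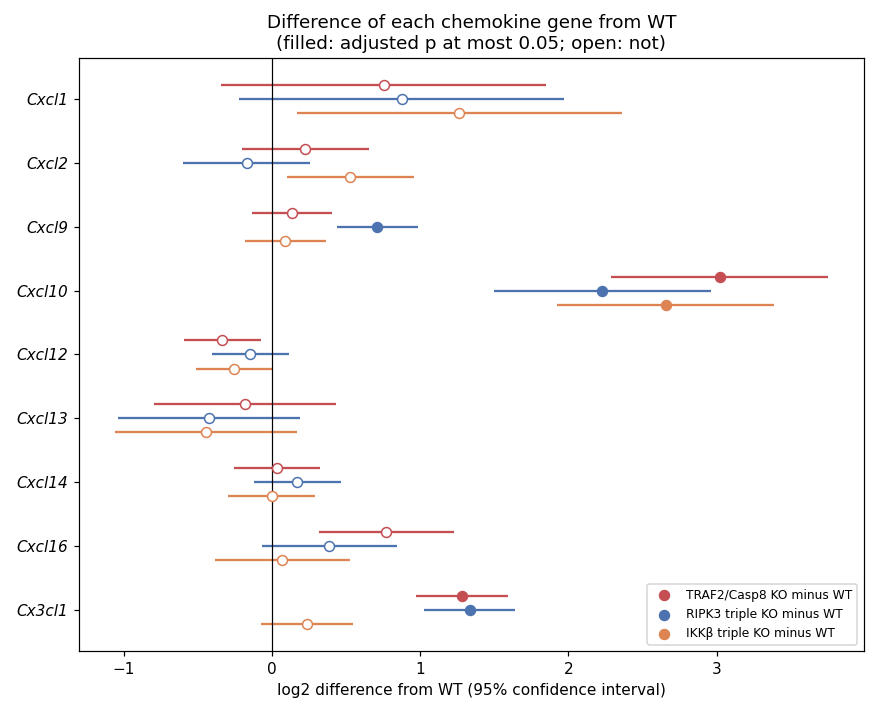
Log2 difference of each chemokine gene from WT (horizontal axis) with its 95% confidence interval from the limma model, for the 3 knockout genotypes; filled points passed an adjusted p of 0.05. Cxcl10 is filled at 3.02, 2.23 and 2.66, Cx3cl1 at 1.28 and 1.33, and Cxcl9 at 0.71.

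Cxcl10, the CXCR3 ligand that recruits activated T cells, had the widest difference of the 9 genes. Its log2 signals were 7.58, 6.92, 6.69 and 7.15 in the WT livers. They were 10.01, 9.98, 9.78 and 10.65 in TRAF2/Casp8 KO, 9.16, 9.16, 8.80 and 10.14 in RIPK3 triple KO, and 10.50, 10.19, 9.0 and 9.28 in IKKβ triple KO. Each of the 12 knockout values lay above all 4 WT values, while the knockout genotypes overlapped one another. The rise over WT was 8.11-fold in TRAF2/Casp8 KO (log2 difference 3.02 ± 0.34 SE, 95% confidence interval 2.29 to 3.75, adjusted p = 0.000171). It was 4.69-fold in RIPK3 triple KO (2.23, interval 1.50 to 2.96, adjusted p = 0.00265) and 6.31-fold in IKKβ triple KO (2.66, interval 1.93 to 3.39, adjusted p = 0.00951). The first 2 kept their calls with each array left out in turn, with adjusted p up to 0.00109 and 0.0129. The last lies within plate column 5. It lost its call when WT replicate 2, WT replicate 3 or IKKβ triple KO replicate 2 was left out, with adjusted p of 0.0511, 0.0637 and 0.0639, and had an adjusted p of 0.218 in a model of those 2 genotypes alone, although the difference stayed at 2.40 or above in the leave-one-out fits.

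The order of Cxcl10 levels was TRAF2/Casp8 KO (10.11 ± 0.38, mean and SD, n = 4), IKKβ triple KO (9.74 ± 0.72), RIPK3 triple KO (9.32 ± 0.58) and WT (7.09 ± 0.38). Only the last step, from RIPK3 triple KO to WT, passed the test. RIPK3 triple KO lay below TRAF2/Casp8 KO by a log2 difference of −0.79, with an interval of −1.52 to −0.06 and an adjusted p of 0.455. IKKβ triple KO differed from TRAF2/Casp8 KO by −0.36 (interval −1.09 to 0.37, adjusted p = 0.85). Comparing RIPK3 triple KO with WT within each of the plate rows A to D gave 1.58, 2.24, 2.10 and 2.99, all higher. T and NK cell markers, whose cells carry CXCR3, had mean log2 signals of 4.49 to 5.03 in WT, 4.86 to 5.16 in TRAF2/Casp8 KO, 4.64 to 4.88 in RIPK3 triple KO and 4.53 to 5.04 in IKKβ triple KO. The ranges overlapped, with 3 of the 4 RIPK3 triple KO livers below every TRAF2/Casp8 KO liver. Of the 8 markers 1 passed in any comparison, Gzma, a granule protease of cytotoxic cells, lower in RIPK3 triple KO than in WT by −0.70 (adjusted p = 0.00448) and against TRAF2/Casp8 KO by −0.62 (0.0383). The part of T and NK cells in the Cxcl10 result was not tested.

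Cxcl9, the other CXCR3 ligand of the set, had a different pattern, being high in RIPK3 triple KO. Its signals were 7.70, 7.39, 7.60 and 7.36 in WT and 7.87, 7.49, 7.56 and 7.68 in TRAF2/Casp8 KO. In RIPK3 triple KO they were 8.01, 8.12, 8.33 and 8.44, and in IKKβ triple KO 7.62, 7.47, 7.88 and 7.45. The 4 RIPK3 triple KO values lay above all 12 others, and the other 3 genotypes overlapped. The rise over WT was 1.64-fold (log2 difference 0.71 ± 0.13 SE, interval 0.44 to 0.98, adjusted p = 0.00822), and within plate rows it was 0.31, 0.73, 0.73 and 1.09. It kept its call with any 1 array of the 2 genotypes left out, with adjusted p up to 0.0328. Against TRAF2/Casp8 KO, whose label differs in Ripk3 alone, the difference was 0.58 (interval 0.30 to 0.85). Its limma adjusted p of 0.0923 misses the threshold. These 2 genotypes share column 7 but lie in different plate rows, so Ripk3 loss and row cannot be told apart. Whether their mixed background differs was not tested. IKKβ triple KO lay below RIPK3 triple KO by −0.62 (1.54-fold, interval −0.89 to −0.35, adjusted p = 0.0263). Leaving out RIPK3 triple KO replicate 3 (0.0885) or 4 (0.059) ended that call, as did leaving out IKKβ triple KO replicate 2 (0.0799) or 4 (0.0874) and fitting those 2 genotypes alone (0.0957). TRAF2/Casp8 KO differed from WT by 0.14 (interval −0.14 to 0.41, adjusted p = 0.707) and IKKβ triple KO from WT by 0.09 (interval −0.18 to 0.36, adjusted p = 0.951).

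In the order of Cxcl9 levels, RIPK3 triple KO (8.23 ± 0.20) stood first, and TRAF2/Casp8 KO (7.65 ± 0.17), IKKβ triple KO (7.60 ± 0.20) and WT (7.51 ± 0.17) followed with steps of at most 0.09 between them. Kupffer cell and macrophage markers, the cells in which Cxcl9 is commonly found, had mean log2 signals of 9.17 to 9.78 in RIPK3 triple KO and 8.99 to 9.91 in WT. They were 9.20 to 9.44 in TRAF2/Casp8 KO and 9.23 to 9.36 in IKKβ triple KO. The RIPK3 triple KO maximum belongs to replicate 4, and the next highest liver of that genotype had 9.27. The WT maximum belongs to replicate 1, whose Cxcl9 value of 7.70 was also the highest of its genotype. The part of these cells in the Cxcl9 result was not tested.

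Cx3cl1, fractalkine, the membrane-anchored ligand of CX3CR1, rose in TRAF2/Casp8 KO and RIPK3 triple KO and lay near WT in IKKβ triple KO. Its signals were 4.74, 4.44, 4.30 and 4.59 in WT and 5.61, 5.91, 5.74 and 5.95 in TRAF2/Casp8 KO. They were 5.51, 5.90, 5.92 and 6.08 in RIPK3 triple KO and 5.04, 4.86, 4.53 and 4.58 in IKKβ triple KO. The 8 livers of TRAF2/Casp8 KO and RIPK3 triple KO all lay above the 8 livers of WT and IKKβ triple KO, with a gap from 5.04 to 5.51, and within each of these pairs of genotypes the values overlapped. The rise over WT was 2.43-fold in TRAF2/Casp8 KO (log2 difference 1.28 ± 0.14 SE, interval 0.98 to 1.59, adjusted p = 0.000162) and 2.52-fold in RIPK3 triple KO (1.33, adjusted p = 0.000113). The IKKβ triple KO signal was below that of TRAF2/Casp8 KO by −1.05 (2.07-fold, interval −1.36 to −0.74, adjusted p = 0.00211) and below that of RIPK3 triple KO by −1.10 (2.14-fold, interval −1.41 to −0.79, adjusted p = 0.00138). These 4 calls were kept with each array left out in turn, with adjusted p up to 0.0125.

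The differences within a plate column were small for Cx3cl1. IKKβ triple KO against WT gave 0.24 (interval −0.07 to 0.55, adjusted p = 0.86), and RIPK3 triple KO against TRAF2/Casp8 KO gave 0.05 (interval −0.26 to 0.36, adjusted p = 0.935). High and low Cx3cl1 followed the plate columns, so genotype and column cannot be told apart for this gene. Within plate rows, RIPK3 triple KO minus WT was 0.77, 1.46, 1.62 and 1.49, and IKKβ triple KO minus TRAF2/Casp8 KO was −0.56, −1.04, −1.22 and −1.37. Levels ran in the order RIPK3 triple KO (5.85 ± 0.24), TRAF2/Casp8 KO (5.80 ± 0.16), IKKβ triple KO (4.75 ± 0.24) and WT (4.52 ± 0.19), and the middle step alone, of 1.05, passed the test.

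Markers of bile duct cells followed Cx3cl1 in some comparisons and not in others. Of 8 cholangiocyte markers 6 were measured, and their mean log2 signal was 4.94 to 5.23 in WT, 5.90 to 6.04 in TRAF2/Casp8 KO, 5.57 to 5.86 in RIPK3 triple KO and 4.98 to 5.63 in IKKβ triple KO. In TRAF2/Casp8 KO against WT 4 of the 6 rose: Sox9, a transcription factor of bile duct and progenitor cells, by 1.31 (limma adjusted p = 0.000147), the tight-junction genes Cldn7 by 1.35 (0.000186) and Cldn4 by 1.76 (0.000656), and the epithelial adhesion gene Epcam by 0.79 (0.0187). The keratin genes Krt19, at −0.19 (adjusted p = 0.881), and Krt7, at 0.18 (0.698), did not pass. Against TRAF2/Casp8 KO, IKKβ triple KO had lower Sox9, Cldn4 and Cldn7, with −1.12 for Sox9 (adjusted p = 0.00137). In RIPK3 triple KO against WT, where Cx3cl1 rose by 1.33, 2 of 6 rose, Sox9 by 1.10 (0.00072) and Epcam by 0.67 (0.0461), and the median difference of the list was 0.55, beside 1.05 in TRAF2/Casp8 KO. In RIPK3 triple KO against TRAF2/Casp8 KO, where Cx3cl1 differed by 0.05, Cldn7 alone passed, at −1.0 (0.0117). Of the 6 markers Sox9 alone was lower in IKKβ triple KO against RIPK3 triple KO, by −0.91 (0.00612), and 0 passed by limma in IKKβ triple KO against WT, with 0 at an unadjusted p under 0.05. The part of bile duct cells in the Cx3cl1 result was not tested.

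**Figure D3:**
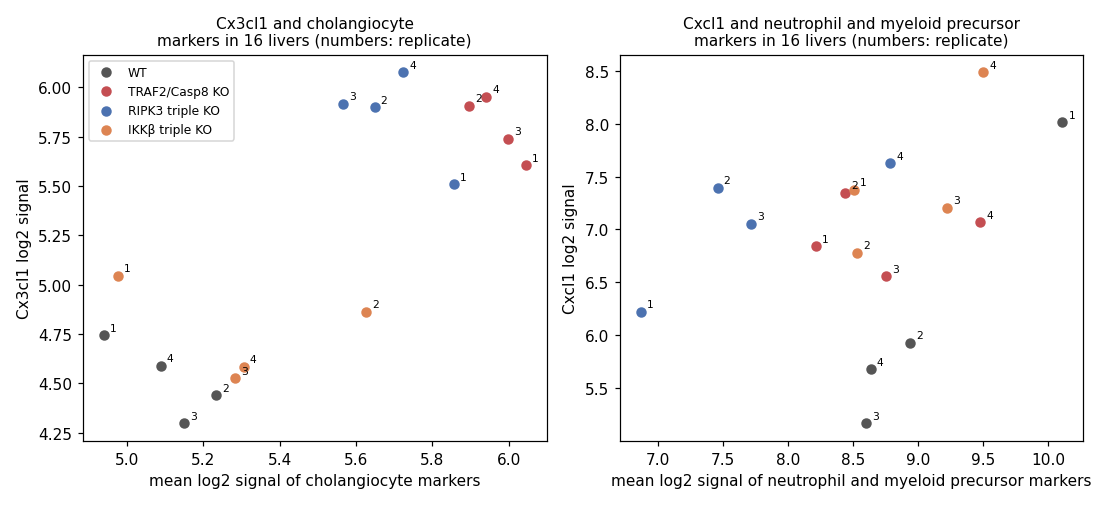
Left, Cx3cl1 log2 signal (vertical) against the mean log2 signal of the cholangiocyte markers (horizontal); right, Cxcl1 log2 signal against the mean log2 signal of neutrophil and myeloid precursor markers; each dot is a liver, coloured by genotype and numbered by replicate. On the left, TRAF2/Casp8 KO and RIPK3 triple KO lie at Cx3cl1 of 5.51 or more and the other livers at 5.04 or less. On the right, WT replicate 1 lies apart from the other WT livers on both axes (10.11 and 8.01).

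Cxcl16, the membrane-anchored ligand of CXCR6, had its highest mean in TRAF2/Casp8 KO. Its signals were 7.33, 6.29, 6.59 and 6.35 in WT, 7.64, 7.27, 7.07 and 7.67 in TRAF2/Casp8 KO, 6.93, 6.75, 6.93 and 7.49 in RIPK3 triple KO, and 6.62, 6.77, 6.69 and 6.76 in IKKβ triple KO. WT replicate 1 lay within the TRAF2/Casp8 KO range and the other 3 WT livers lay below it. The difference from WT in TRAF2/Casp8 KO was 0.77 ± 0.21 SE (1.71-fold, interval 0.32 to 1.23) with an adjusted p of 0.0789, which misses the threshold. Without WT replicate 1 it was 1.00 with an adjusted p of 0.00615, and without any other single array of the 2 genotypes it did not pass, with adjusted p up to 0.217. IKKβ triple KO lay below TRAF2/Casp8 KO by −0.70 (interval −1.15 to −0.25, adjusted p = 0.22), with no overlap between the 2 genotypes, and the within-row differences were −1.02, −0.50, −0.37 and −0.91. Levels ran in the order TRAF2/Casp8 KO (7.41 ± 0.29), RIPK3 triple KO (7.03 ± 0.32), IKKβ triple KO (6.71 ± 0.07) and WT (6.64 ± 0.48), and no step of that order passed the test. A second probe set, annotated to both Zmynd15 and Cxcl16, was left out by the rule of 1 symbol. It differed between TRAF2/Casp8 KO and WT by 0.27 (adjusted p = 0.453) and between IKKβ triple KO and TRAF2/Casp8 KO by −0.39 (adjusted p = 0.38).

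Cxcl1 and Cxcl2, the neutrophil-attracting ligands of CXCR2, both had their highest mean in IKKβ triple KO. Cxcl1 signals were 8.01, 5.93, 5.17 and 5.68 in WT and 6.84, 7.35, 6.56 and 7.07 in TRAF2/Casp8 KO. They were 6.22, 7.40, 7.05 and 7.63 in RIPK3 triple KO and 7.38, 6.78, 7.20 and 8.49 in IKKβ triple KO. Of the WT livers, 3 lay below every knockout value and replicate 1 lay above 11 of the 12. The differences from WT were 0.76 (interval −0.34 to 1.85, adjusted p = 0.571), 0.88 (−0.22 to 1.97, 0.488) and 1.26 (0.17 to 2.36, 0.759) in TRAF2/Casp8 KO, RIPK3 triple KO and IKKβ triple KO, and none passed. Without WT replicate 1 the differences were 1.36 (adjusted p = 0.081), 1.48 (0.0525) and 1.87 (0.168) in the same order, and still none passed. The means ran from 7.46 ± 0.73 in IKKβ triple KO over 7.07 ± 0.62 in RIPK3 triple KO and 6.95 ± 0.33 in TRAF2/Casp8 KO to 6.20 ± 1.25 in WT, with no neighbouring pair apart by the test.

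Cxcl2 was among the dimmest 1 in 3 of all probe sets. Its signals were 2.57, 2.94, 2.44 and 2.55 in WT, 2.57, 3.09, 2.56 and 3.19 in TRAF2/Casp8 KO, 2.25, 2.37, 2.56 and 2.64 in RIPK3 triple KO, and 2.77, 3.11, 3.76 and 2.99 in IKKβ triple KO. IKKβ triple KO lay above RIPK3 triple KO without overlap, by 0.70 (interval 0.27 to 1.13, adjusted p = 0.105), and the difference passed only without IKKβ triple KO replicate 1 (adjusted p = 0.048). Against WT, IKKβ triple KO differed by 0.53 (interval 0.10 to 0.96, adjusted p = 0.74). Means were 3.16 ± 0.43 in IKKβ triple KO, 2.85 ± 0.33 in TRAF2/Casp8 KO, 2.63 ± 0.22 in WT and 2.46 ± 0.18 in RIPK3 triple KO, and no step of that order passed the test. Neutrophil and myeloid precursor markers had mean log2 signals of 8.60 to 10.11 in WT, 8.22 to 9.48 in TRAF2/Casp8 KO, 6.87 to 8.79 in RIPK3 triple KO and 8.51 to 9.50 in IKKβ triple KO. WT replicate 1, the highest WT liver for Cxcl1, held the value of 10.11. In RIPK3 triple KO against WT, 1 of the 8 markers was lower by limma and 8 had an unadjusted p under 0.05. The share of all genes lower in that comparison is not given here for any list. The list's median difference there was −1.31. Against TRAF2/Casp8 KO it was −0.98, with 0 past the threshold and 6 at an unadjusted p under 0.05. TRAF2/Casp8 KO and IKKβ triple KO had medians of −0.32 and −0.19 against WT, with 0 at an unadjusted p under 0.05. The part of these cells in the Cxcl1 and Cxcl2 values was not tested.

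The constitutive chemokines Cxcl12 and Cxcl13 passed the threshold in no comparison. Cxcl12, which retains haematopoietic precursors through CXCR4, was 9.0, 9.23, 9.32 and 9.28 in WT, 8.82, 8.73, 9.22 and 8.71 in TRAF2/Casp8 KO, 8.90, 9.13, 9.20 and 9.01 in RIPK3 triple KO, and 9.07, 8.76, 9.10 and 8.88 in IKKβ triple KO. In TRAF2/Casp8 KO 3 of 4 values lay below all WT values. The difference from WT was −0.34 ± 0.12 SE (interval −0.60 to −0.08) with an adjusted p of 0.204, and those of RIPK3 triple KO and IKKβ triple KO were −0.15 (0.653) and −0.25 (0.804). Its order was WT (9.21 ± 0.14), RIPK3 triple KO (9.06 ± 0.13), IKKβ triple KO (8.95 ± 0.16) and TRAF2/Casp8 KO (8.87 ± 0.24), with steps of at most 0.15.

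Cxcl13, the B cell chemokine of lymphoid follicles, was 6.31, 4.75, 5.04 and 4.96 in WT, 5.22, 4.48, 5.14 and 5.50 in TRAF2/Casp8 KO, 4.58, 5.03, 4.79 and 4.97 in RIPK3 triple KO, and 4.82, 5.13, 4.80 and 4.54 in IKKβ triple KO. WT replicate 1 was the highest of all 16 livers, and the other livers overlapped; the B cell markers were also highest in that array, at a mean of 6.95, and their part was not tested. By limma, Cxcl13 differed from WT by −0.18 in TRAF2/Casp8 KO (interval −0.80 to 0.43, adjusted p = 0.847). The difference was −0.43 in RIPK3 triple KO (−1.04 to 0.19, 0.556) and −0.45 in IKKβ triple KO (−1.06 to 0.17, 0.867). Means ran from 5.27 ± 0.71 in WT to 5.08 ± 0.43, 4.84 ± 0.20 and 4.82 ± 0.24 in TRAF2/Casp8 KO, RIPK3 triple KO and IKKβ triple KO, with no step past the test. Cxcl14 lay between 3.26 and 3.94 in all 16 livers, also in that dim part, with means of 3.58 ± 0.26 in WT, 3.61 ± 0.19 in TRAF2/Casp8 KO, 3.75 ± 0.15 in RIPK3 triple KO, with 3.58 ± 0.19 in IKKβ triple KO. Its differences from WT were 0.03 (interval −0.26 to 0.33, adjusted p = 0.954), 0.17 (−0.12 to 0.46, 0.634) and, in IKKβ triple KO, under 0.01 in size (−0.29 to 0.29, 0.999).

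**Figure D4:**
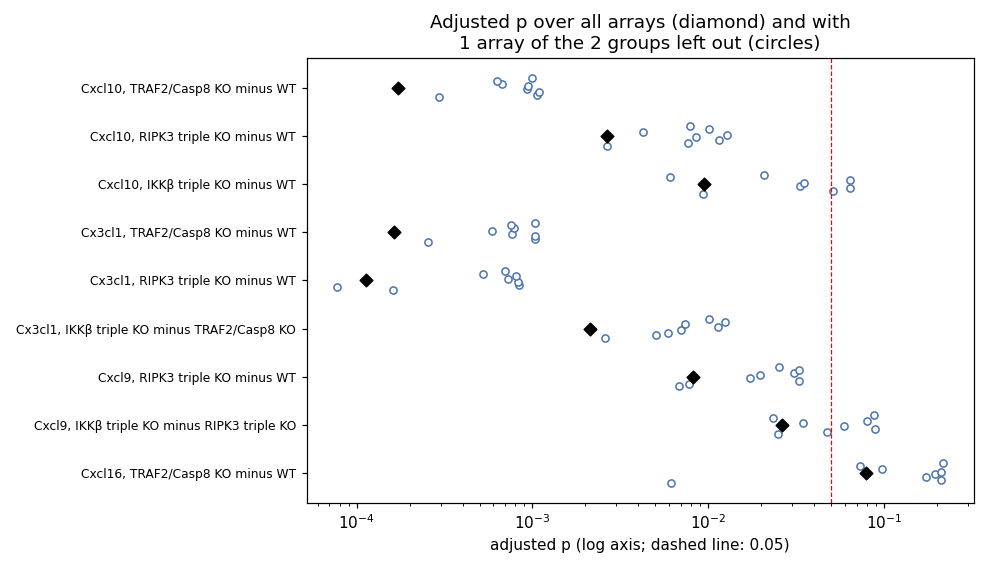
Adjusted p (horizontal, log axis) of 9 differences of chemokine genes over all arrays (diamonds) and with 1 array of the 2 genotypes left out (circles); the dashed line is the threshold of 0.05. Cxcl10 in TRAF2/Casp8 KO and the Cx3cl1 differences stay left of the line, Cxcl10 in IKKβ triple KO crosses it with 3 arrays and Cxcl9 in IKKβ triple KO against RIPK3 triple KO with 4, and Cxcl16 comes left of it without WT replicate 1.

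Of the 7 other CXC ligand genes (Cxcl3, Cxcl5, Cxcl11, Cxcl15, Cxcl17, Pf4 and Ppbp), 0 passed limma's threshold in any of the 6 comparisons, and at most 2 in a comparison had an unadjusted p under 0.05. Several were dim. Genotype means of Cxcl3 (up to 3.17), Cxcl5 (up to 2.93) and Cxcl15 (up to 2.64) lay below those of the dim Cxcl14. Those of Cxcl11, at 3.62 to 3.84, lay near them. Small differences of these genes may go unseen. Cxcl5 and Cxcl3, which encode further CXCR2 ligands, differed by −0.29 (adjusted p = 0.316) and −0.22 (0.344) between TRAF2/Casp8 KO and WT. Cxcl11, the third CXCR3 ligand, had a mean of 3.68 ± 0.14 in TRAF2/Casp8 KO and differed from WT by −0.22 in RIPK3 triple KO (adjusted p = 0.347). The 3 processing enzymes, the sheddases Adam10 and Adam17 and the chemokine-trimming peptidase Dpp4, passed in 0 comparisons by limma, with 1 unadjusted p under 0.05 for Dpp4 when IKKβ triple KO was set against TRAF2/Casp8 KO and 1 when it was set against WT. Dpp4 differed by −0.35 between IKKβ triple KO and TRAF2/Casp8 KO (adjusted p = 0.322).

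Among the 9 receptors (Cxcr1 to Cxcr6, Cx3cr1, Ackr1 and Ackr3) only Cx3cr1, the receptor of fractalkine on monocytes and macrophages, passed in any of the 6 comparisons. It fell in RIPK3 triple KO against TRAF2/Casp8 KO by −1.0 ± 0.19 SE (2.00-fold, adjusted p = 0.0445), where 0.149% of all genes fell. Its signals were 5.64, 5.35, 6.04 and 6.05 in TRAF2/Casp8 KO and 4.44, 4.77, 5.36 and 4.51 in RIPK3 triple KO. WT livers held 5.32, 5.21, 4.99 and 5.31, below every TRAF2/Casp8 KO value and within the RIPK3 triple KO range. The highest RIPK3 triple KO value lay just above the lowest TRAF2/Casp8 KO value. The call was lost when any of 6 of the 8 arrays was left out (all but TRAF2/Casp8 KO replicate 2 and RIPK3 triple KO replicate 3), with adjusted p up to 0.166, and also with array weights, with the replicate number as a block, and in a model of the 2 genotypes alone. Cx3cl1 differed by 0.05 in the same comparison. Ackr1, a decoy receptor of endothelium and red cells, was −0.50 in TRAF2/Casp8 KO against WT (adjusted p = 0.101). Cxcr3 had means of 3.99 ± 0.25 in WT, 4.31 ± 0.21 in TRAF2/Casp8 KO, 4.24 ± 0.35 in RIPK3 triple KO, with 4.46 ± 0.19 in IKKβ triple KO.

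Genes of the NF-κB system, which many chemokine promoters respond to, moved in part like Cx3cl1. Of 8 measured subunits and inhibitors, 5 rose in TRAF2/Casp8 KO against WT: Nfkbie, which encodes the inhibitor IκBε, by 2.49 (limma adjusted p = 1.8e-05), Nfkb2, the p100 subunit, by 2.05 (1.8e-05), Tnfaip3, the A20 deubiquitinase, by 1.76 (0.000365), and Relb (1.71) and Nfkbia (1.16, adjusted p = 0.0457). Nfkbia lost its call without 6 of the 8 arrays (all but WT replicate 1 and TRAF2/Casp8 KO replicate 3), with adjusted p up to 0.139. In RIPK3 triple KO against WT 5 rose as well, among them Nfkbie by 2.40, Nfkb2 by 2.04 and Tnfaip3 by 2.00, with Relb (1.83) and Nfkbib (0.64). Nfkbib lost its call without replicate 2, 3 or 4 of WT or replicate 3 or 4 of RIPK3 triple KO, with adjusted p up to 0.0785. RIPK3 triple KO against TRAF2/Casp8 KO had 0 of 8 past limma's threshold and 1 at an unadjusted p under 0.05. In IKKβ triple KO 2 fell against TRAF2/Casp8 KO, Nfkbie by −1.84 (adjusted p = 0.000841) and Nfkb2 by −1.03 (0.0126). Against WT, IKKβ triple KO had 0 of 8 past the threshold by limma and 6 at an unadjusted p under 0.05, with Tnfaip3 at 1.37 (adjusted p = 0.0546). The list's median difference from WT was 1.44, 1.44 and 0.75 in the 3 knockouts, beside −0.01 over all genes. The Nfkb2 fall lost its call without replicate 1 or 4 of TRAF2/Casp8 KO or replicate 3 or 4 of IKKβ triple KO, with adjusted p up to 0.0552.

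**Figure D5:**
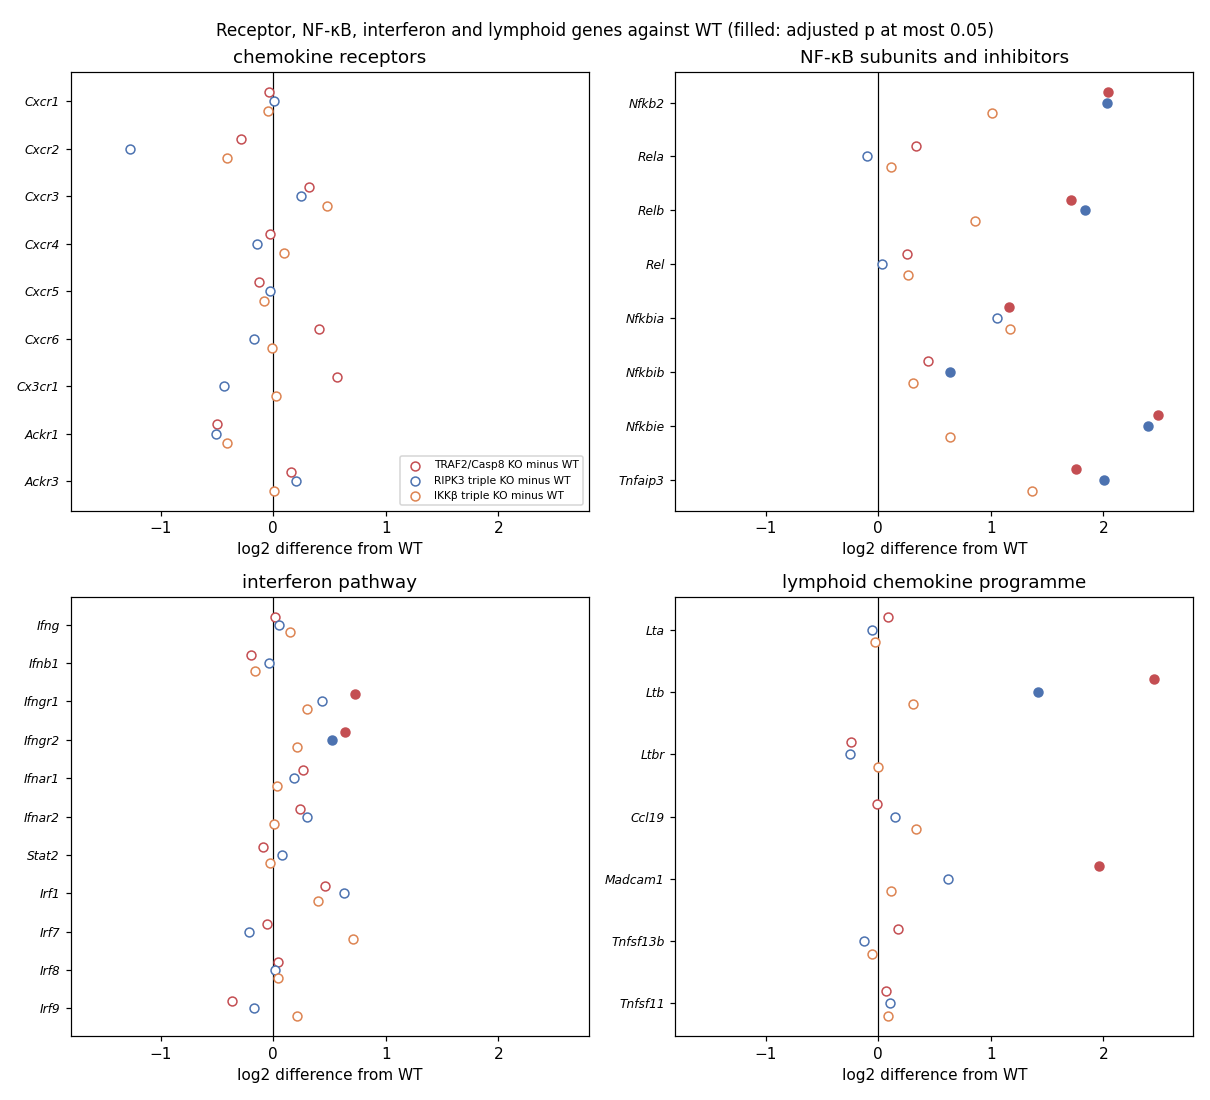
Log2 difference from WT (horizontal axes) of chemokine receptor, NF-κB, interferon and lymphoid chemokine programme genes in the 3 knockout genotypes; filled points passed an adjusted p of 0.05. Nfkbie is filled at 2.49 and 2.40, Ltb at 2.45 and 1.42, and no receptor is filled.

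Of 11 measured interferon pathway genes, a pathway that induces Cxcl9 and Cxcl10, 2 rose in TRAF2/Casp8 KO against WT. Both encode chains of the interferon gamma receptor: Ifngr1 by 0.72 (limma adjusted p = 0.00693) and Ifngr2 by 0.64 (0.00294). Ifngr2 rose by 0.52 in RIPK3 triple KO against WT (0.0144), a call lost without WT replicate 4 (0.0523). In IKKβ triple KO against WT, where Cxcl10 rose, 0 of 11 passed by limma and 2 had an unadjusted p under 0.05. Irf7, an interferon-induced transcription factor, was higher in IKKβ triple KO than in RIPK3 triple KO by 0.93 (adjusted p = 0.0388), and this call was lost without 7 of the 8 arrays (all but IKKβ triple KO replicate 1), with adjusted p up to 0.12. The interferon genes themselves were dim, at 3.29 to 3.74 for Ifng and 2.41 to 3.10 for Ifnb1 over the 16 livers, with overlap among all genotypes. The list's median difference in TRAF2/Casp8 KO was 0.05, beside −0.01 over all genes.

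In the lymphoid chemokine programme, the setting in which Cxcl13 usually works, 2 of 7 measured genes rose in TRAF2/Casp8 KO against WT. Ltb, which encodes lymphotoxin beta, rose by 2.45 (limma adjusted p = 8.83e-05), from 6.40, 5.34, 5.86 and 5.14 in WT to 8.23, 7.70, 7.94 and 8.67. Madcam1, an endothelial addressin, rose by 1.96 (0.00136). Both fell in IKKβ triple KO against TRAF2/Casp8 KO, by −2.14 (0.000869) and −1.84 (0.00502). Ltb rose by 1.42 in RIPK3 triple KO against WT (0.00822) and lay lower in IKKβ triple KO against RIPK3 triple KO by −1.11 (0.0406), a call that was lost whichever of the 8 arrays was left out, with adjusted p up to 0.106. Cxcl13 passed in 0 of the 6 comparisons by limma, with 0 at an unadjusted p under 0.05.

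The genes whose profiles over the 16 livers were most like those of the chemokines were ranked by Pearson correlation among 16425 genes, as a description in which the points share genotypes and arrays. For Cxcl10 they were Adgrg2 (0.912), Haus8 (0.896) and Rhbdf2 (0.887). Adgrg2, an adhesion G-protein-coupled receptor, had means of 5.47 ± 0.32 in WT, 7.71 ± 0.07 in TRAF2/Casp8 KO, 7.07 ± 0.32 in RIPK3 triple KO, with 6.84 ± 0.47 in IKKβ triple KO. Closest to Cx3cl1 were Birc2 (0.972), Nfkbie (0.965) and Cacna1a (0.960). Birc2, which encodes the ubiquitin ligase cIAP1, had means of 6.71 ± 0.21, 7.82 ± 0.12, 7.77 ± 0.12 and 6.91 ± 0.21 in the same order of genotypes. For Cxcl9 the closest were Gdpd3 (0.916), Uox (0.906) and Slc26a6 (0.903). Uox, the urate oxidase of hepatocytes, had means of 10.80 ± 0.12, 10.73 ± 0.14, 11.45 ± 0.16 and 10.69 ± 0.26.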

How the data were processed

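The authors deposited log2 values made with RMA, per the submitters' processing notes; neither its version nor the probe set definition is given in the sources used here. Values ran from 0.89 to 13.65, from which the log2 scale was read, and array medians from 4.90 to 5.05. All 16 columns were used, with no further normalisation or filter. Of 35556 probe sets, 21218 carry 1 symbol, 1881 several and 12457 none in the platform annotation, with symbols updated through Entrez identifiers to the RefSeq table of GRCm38.p6. For each gene the 1-symbol probe set with the highest mean over the 16 arrays was used.

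The 4 genotypes were compared in 1 limma 3.58.1 model (R 4.3.3, lmFit and eBayes, two-sided) over all arrays, with Benjamini-Hochberg adjustment over all probe sets and a threshold of 0.05. The labels give each array its own mouse. Checked on simulated data for TRAF2/Casp8 KO against WT (35556 probe sets), this recovered 42% of log2 changes of 0.5, 85% of 1 and 98.5% of 2, with 4.25% of calls false. The simulated noise was normal and independent between probe sets and arrays, with no deviant array and no plate effect. These shares therefore do not give the false share of the real calls. The number of arrays limits the precision. Array names gave the plate positions, which were not checked against a layout.

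The members and gene lists were chosen with earlier results of these data known. Named genes were all members, up to 3 genes past the threshold per list and comparison (others where a count was 5 or fewer), up to 2 otherwise, and the 3 genes most like each member that passed, leaving out predicted, clone-named, small RNA, receptor segment, olfactory and vomeronasal genes. The Adam10, Cxcr3 and Cxcl11 remarks were added after values were seen. Genes on the lists with no 1-symbol probe set were not used here. Other settings tried were array weights, robust eBayes with an intensity trend, a model of the 2 groups alone, a filter on the dimmest 1 in 3 of all probe sets, median centring, quantile normalisation, 1 probe set for each gene, plate row as random block, a replicate block, and each array left out in turn. Python 3.11.15 with matplotlib 3.10.9 drew the figures.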

Additional observations from a re-analysis of the deposited data

How the results depend on the processing

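Over the alternatives other than leaving out an array, 466 values of the 54 chemokine differences kept their direction and their side of the threshold, 2 lost a call, 3 gained one and 3 changed sign. With an array left out, 400 kept both, 7 lost a call, 2 gained one and 23 changed sign. The sign changes concern differences near 0 that passed in no setting. In the other settings they were Cxcl13 in TRAF2/Casp8 KO against WT, 0.056 with array weights, and Cxcl14 in IKKβ triple KO against WT, 0.022 after quantile normalisation and 0.0018 after median centring. With an array left out, TRAF2/Casp8 KO minus WT ran from −0.36 to 0.17 for Cxcl13 and −0.072 to 0.11 for Cxcl14. RIPK3 triple KO minus TRAF2/Casp8 KO ran from −0.063 to 0.41 for Cxcl1 and −0.026 to 0.16 for Cx3cl1. IKKβ triple KO minus TRAF2/Casp8 KO ran from −0.14 to 0.027 for Cxcl9 and −0.13 to 0.042 for Cxcl14. IKKβ triple KO minus WT ran from −0.0011 to 0.15 for Cxcl9, −0.11 to 0.080 for Cxcl14 and −0.045 to 0.30 for Cxcl16, and IKKβ triple KO minus RIPK3 triple KO from −0.12 to 0.073 for Cxcl13. Cxcl16 in TRAF2/Casp8 KO against WT passed with array weights (0.93, limma adjusted p = 0.00697) and with 1 probe set per gene (adjusted p = 0.0326), where fewer probe sets are tested.

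The count of chemokine genes past the threshold was 1 in place of 0 for RIPK3 triple KO against TRAF2/Casp8 KO with 1 probe set per gene (Cxcl9, adjusted p = 0.0385). With only the 2 groups it was 0 in place of 1 for IKKβ triple KO against WT and 1 in place of 2 for IKKβ triple KO against RIPK3 triple KO. With an array left out it was 2 to 3 for TRAF2/Casp8 KO against WT, 0 to 0 for RIPK3 triple KO against TRAF2/Casp8 KO, 1 to 1 for IKKβ triple KO against TRAF2/Casp8 KO, 3 to 3 for RIPK3 triple KO against WT, 0 to 1 for IKKβ triple KO against WT and 1 to 3 for IKKβ triple KO against RIPK3 triple KO.

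Over all probe sets, 800, 94, 223, 845, 7 and 567 passed in TRAF2/Casp8 KO against WT, RIPK3 triple KO against TRAF2/Casp8 KO, IKKβ triple KO against TRAF2/Casp8 KO, RIPK3 triple KO against WT, IKKβ triple KO against WT and IKKβ triple KO against RIPK3 triple KO. With only the 2 groups, and so fewer arrays, the counts in that order were 458, 40, 109, 328, 1 and 232. Array weights gave 1594, 509, 20 and 875 for TRAF2/Casp8 KO against WT and IKKβ triple KO against TRAF2/Casp8 KO, WT and RIPK3 triple KO, 1 probe set per gene gave 340 for IKKβ triple KO against TRAF2/Casp8 KO and 28 against WT, and leaving out the dimmest 1 of 3 equal parts gave 13 for IKKβ triple KO against WT; the cause was not tested. With an array left out the ranges were 420 to 902, 39 to 89, 115 to 312, 425 to 1095, 4 to 13 and 197 to 938.

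Replicate numbers were not taken to pair the arrays: deviations of same-numbered arrays correlated from −0.102 to 0.159, and over 0.1 in 4 of 24 pairs, 3 of them among the 4 of IKKβ triple KO and TRAF2/Casp8 KO, which also share plate rows. In each knockout genotype the mean signal of the neutrophil markers was lowest in replicate 1 and highest in replicate 4. With the replicate number as a block, 62 probe sets passed in RIPK3 triple KO against TRAF2/Casp8 KO in place of 94, no chemokine call changed, and among the listed genes the calls of Cx3cr1 in that comparison, Nfkbib in RIPK3 triple KO against WT, Traf2 in IKKβ triple KO against WT, and Irf7 and Ltb in IKKβ triple KO against RIPK3 triple KO were lost. The consensus correlation within plate rows was 0.0133. Among the listed genes, a model of the 2 groups alone ended the calls of Ifngr1 and Nfkbia in TRAF2/Casp8 KO against WT, Cx3cr1 in RIPK3 triple KO against TRAF2/Casp8 KO, Ifngr2, Nfkbib and Ltb in RIPK3 triple KO against WT, Madcam1 in IKKβ triple KO against TRAF2/Casp8 KO, Casp8 and Traf2 in IKKβ triple KO against WT, and Irf7 and Traf2 in IKKβ triple KO against RIPK3 triple KO. Irf7 also lost its call after median centring, and Cx3cr1 with array weights. Averaging the 1-symbol probe sets of a gene was not run, since each of the 9 genes has 1. Leaving out the dim part gives no value for Cxcl2 and Cxcl14, whose signals are dim, so that small differences of them may go unseen.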
